A study of Homo sapiens with 11 samples.

Results

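The miR-17-92 cluster is a set of 6 microRNA hairpins that are cut from a single primary transcript, MIR17HG. Its 7 most studied mature microRNAs (miRNAs), hsa-miR-17-5p, hsa-miR-17-3p, hsa-miR-18a-5p, hsa-miR-19a-3p, hsa-miR-19b-3p, hsa-miR-20a-5p and hsa-miR-92a-3p, were followed through small RNA-seq data of 6 human tumour cell lines. They were chosen by name, and all 7 were found among the 2588 mature miRNAs of the series. The question was how the products of this transcript compare between the lines and with each other, with attention to BE(2)C, a neuroblastoma line whose 2 replicates differ.

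MIR17HG is transcribed under the control of MYC, MYCN and E2F factors and is frequently amplified or overexpressed in lymphoma, lung cancer and neuroblastoma. Its primary transcript is cleaved into hairpins by the Drosha complex, Dicer cuts each hairpin into a duplex, and usually a single strand of the duplex is retained by Argonaute. The miR-17 family (miR-17-5p and miR-20a-5p) is known to repress cell cycle brakes such as CDKN1A, and miR-92a-3p targets the proapoptotic factor BIM. BE(2)C carries an amplified MYCN gene.

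The lines were A549 (lung), ES2 (ovary), MV3 (melanoma), PANC1 (pancreas), BE(2)C (neuroblastoma) and HepG2 (liver), all parental cells without siRNA or other treatment. There were 2 biological replicates for each line except PANC1, which had 1, giving 11 libraries. The 7 libraries of A549, ES2, MV3 and PANC1 were made with a NEXTflex kit, and the 4 libraries of BE(2)C and HepG2 were prepared by Novogene. Sequencer, read length and site changed with the preparation, so that line and preparation cannot be told apart in any comparison across it. BE(2)C cells were grown in another medium, and their harvest time is given as 24 h in the protocol and as 48 h in the sample characteristics. Levels are CPM, the reads of a miRNA per 1000000 reads assigned to miRNAs. In bulk RNA, fewer cells with a miRNA and less of it per cell cannot be told apart.

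The 6 hairpins lie within 787 bases of chromosome 13 (GRCh38, chr13:91350605-91351391, plus strand), in the order MIR17, MIR18A, MIR19A, MIR20A, MIR19B1 and MIR92A1. In the GENCODE annotation, MIR17HG (ENSG00000215417.14) covers chr13:91347686-91397592. Of its 11 transcripts that span the hairpins, 3 hold each hairpin in an exon and 8 in an intron. The mature sequences (RefSeq, GRCh38.p14, all 7 matched) are shown because closely similar members behaved differently. Capitals mark the seed, bases 2 to 8, which is the main determinant of target choice.

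hsa-miR-17-5p: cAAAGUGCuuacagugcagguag
hsa-miR-20a-5p: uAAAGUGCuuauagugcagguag
hsa-miR-18a-5p: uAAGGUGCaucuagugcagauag
hsa-miR-19a-3p: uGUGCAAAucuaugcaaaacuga
hsa-miR-19b-3p: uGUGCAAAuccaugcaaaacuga
hsa-miR-92a-3p: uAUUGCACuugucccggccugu
hsa-miR-17-3p: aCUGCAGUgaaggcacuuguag

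The 7 members carry 5 distinct seeds. MiR-17-5p and miR-20a-5p share a seed and differ by C1U and C12U, counted from the 5′ end with the base of miR-17-5p first. MiR-19a-3p and miR-19b-3p differ by U11C only. MiR-18a-5p has a related seed that differs by A4G from that of miR-17-5p. Both miR-19b-3p and miR-92a-3p can also come from MIR19B2 and MIR92A2 on chromosome X.

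Libraries held between 1173902 and 12137452 reads, and a count of 0 leaves room for 3 reads, or 2.56 CPM at the lowest depth and 0.247 CPM at the highest. Line markers were partly absent. MiR-211-5p and miR-509-3p of melanocytes were at 0 in all 11 libraries, MV3 included. The pancreatic miR-216a-5p, miR-216b-5p and miR-217 were at 0 in PANC1. MiR-204-5p had 1.70 and 1.29 CPM in MV3 and miR-375 had 26.8 CPM in PANC1, but neither was raised there. Means of miR-204-5p were 55.6 CPM in BE(2)C and 2.20 in A549, and those of miR-375 were 5619 in BE(2)C and 41.6 in A549. Blood miR-142-3p was at 326 and 286 CPM in ES2, the line with the highest summed level of the cluster, and at 0 in A549 and MV3. The other blood markers miR-223-3p, miR-451a and miR-150-5p were at most 1.20 CPM in ES2, and the part of miR-142-3p in the ES2 levels was not tested. Neural miR-218-5p was present at 68764 and 88238 CPM in BE(2)C, and neural miR-124-3p at 17.7 and 28.1. Liver markers were mixed in HepG2. Means of miR-192-5p were 15859 CPM in HepG2 and 2730 in A549, but those of miR-194-5p were 230 in HepG2 and 1891 in A549. MiR-122-5p had a mean of 57.0 CPM in HepG2, below the 823 CPM of BE(2)C replicate 1. A single miRNA, miR-148a-3p, took 75.3% and 72.6% of the reads of the HepG2 libraries, and miR-21-5p took 65.0% and 64.2% of those of A549, against 28.2% and 27.0% in ES2 and 33.2% and 32.1% in MV3. The part of miR-21-5p in the A549 differences was not tested. As CPM are shares of the total, such a miRNA lowers the CPM of all others in its library. The levels were therefore also scaled by TMM (trimmed mean of M-values), with factors of 0.166 and 0.217 in HepG2 and between 1.02 and 1.87 in the other libraries. TMM assumes that most miRNAs are unchanged between libraries. In the tests below, however, 522 of 546 miRNAs still differed over the 6 lines with TMM. Neither scale can therefore be taken as the true level.

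MiR-92a-3p, encoded by the last hairpin, was the most abundant member in every library. It was at 12901 and 12603 CPM in A549 (replicates 1 and 2), 52513 and 53543 in ES2, 38638 and 41662 in MV3, 20499 in PANC1, 10036 and 14700.3 in BE(2)C, and 1825 and 2212 in HepG2. The ES2 libraries were the highest and the HepG2 libraries the lowest, while those of A549 lay between the BE(2)C replicates.

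MiR-17-5p had 172 and 148 CPM in A549, 1011 and 915 in ES2, 704 and 776 in MV3, 207 in PANC1, 926 and 3287 in BE(2)C, and 98.2 and 131 in HepG2. MiR-20a-5p, its closest relative in sequence among the members, had 273 and 295 CPM in A549, 1506 and 1468 in ES2, 848 and 869 in MV3, 337 in PANC1, 678 and 2777 in BE(2)C, and 213 and 289 in HepG2. For both, the BE(2)C mean was the highest of all lines on CPM, but only replicate 2 lay above ES2. With TMM, HepG2 went from lowest to highest for miR-20a-5p (1308 CPM, against 1126 in ES2 and 1094 in BE(2)C). On CPM, replicate 1 of BE(2)C was inside the ES2 range for miR-17-5p and below the MV3 libraries for miR-20a-5p.

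MiR-18a-5p was measured at 80.9 and 67.0 CPM in A549, 476 and 456 in ES2, 295 and 310.5 in MV3, 26.4 in PANC1, 90.1 and 239.8 in BE(2)C, and 4.04 and 5.60 in HepG2. No neighbouring lines overlapped in this order, and the mean of ES2 was 96.7-fold that of HepG2, the widest span among the members with reads in every library.

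The miR-19 pair was less abundant than the miR-17 pair. MiR-19a-3p had 46.8 and 53.9 CPM in A549, 244 and 176 in ES2, 238 and 177 in MV3, 33.0 in PANC1, 44.8 and 95.9 in BE(2)C, and 5.98 and 6.51 in HepG2. MiR-19b-3p had 122 and 122 CPM in A549, 551 and 516 in ES2, 383 and 285 in MV3, 148 in PANC1, 212 and 228 in BE(2)C, and 12.5 and 20.2 in HepG2. ES2 and MV3 overlapped for miR-19a-3p and not for miR-19b-3p, whose BE(2)C replicates were nearly equal.

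MiR-17-3p, the opposite strand of the MIR17 hairpin, was scarce. It had 4.12 and 1.94 CPM in A549, 27.1 and 17.9 in ES2, 14.5 and 13.6 in MV3, 12.6 and 31.2 in BE(2)C, and 0.842 and 1.48 in HepG2. PANC1 had 0 of 9746838 reads, which allows up to 0.308 CPM. That library stood apart in its low values: it held 50 miRNAs at 1 to 3 reads, against 159 to 211 in the other 6 NEXTflex libraries of lower depth, and the part of this in the 0 was not tested.

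**Figure D1:**
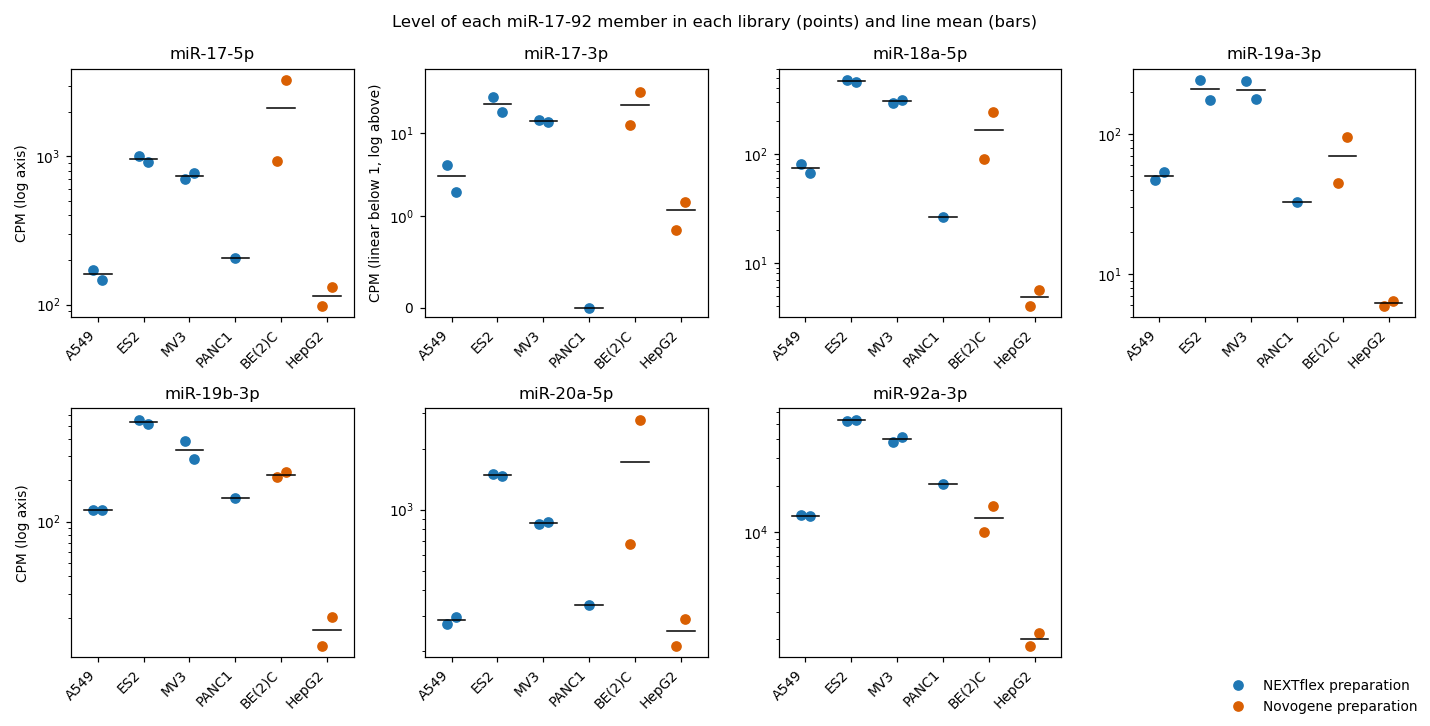
CPM of each member (y axis, log scale; for miR-17-3p linear below 1 CPM) in each library, shown as points by cell line (x axis), with horizontal bars for the line means and colours for the library preparation. ES2 and MV3 are high and HepG2 low throughout, whereas the BE(2)C points are far apart for miR-17-5p (926 and 3287 CPM) and miR-20a-5p (678 and 2777 CPM) but not for miR-19b-3p (212 and 228 CPM).

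Summed over the 7 members, the cluster reached 56710 ± 540 CPM in ES2 (SD, n = 2), 42607 ± 2101 in MV3, 13445 ± 219 in A549, 16679 ± 6619 in BE(2)C and 2413 ± 358 in HepG2, and 21250.1 CPM in PANC1 (n = 1). MiR-92a-3p made up most of this sum, with 94.8% in A549, 93.5% in ES2, 94.2% in MV3, 96.5% in PANC1, 76.2% in BE(2)C and 83.7% in HepG2. Under TMM scaling ES2 stayed highest at 42931 CPM, but HepG2 moved to 12639 CPM, beside A549 at 12686, PANC1 at 12043 and BE(2)C at 10755. The place of HepG2 as the lowest line for miR-17-5p, miR-18a-5p, miR-19a-3p, miR-19b-3p, miR-20a-5p and miR-92a-3p thus held on CPM only. With TMM, PANC1 was lowest for 6 of the 7 members and BE(2)C for miR-92a-3p.

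Differences between lines were tested with limma on log2(CPM + 1) across all miRNAs whose mean reached 10 CPM in any line, and calls are adjusted p-values below 0.05 (Benjamini-Hochberg). All 7 members passed this filter and all 7 differed over the 6 lines, where 99.3% of 546 tested miRNAs did. Over the 4 NEXTflex lines alone all 7 differed, against 85.4% of 453 tested. Both shares are so high that the member counts say little by themselves.

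Within the NEXTflex preparation, the cluster was lower in A549 than in ES2. All 7 members were called, against 26.9% of tested miRNAs called lower in A549, with log2 differences from -2.65 for miR-18a-5p (SE 0.42, adjusted p 0.00115, limma) to -2.02 for miR-19a-3p (SE 0.37, adjusted p 0.00279, limma). MiR-92a-3p was 4.16-fold lower (adjusted p 9.02e-05, limma). The members' median was -2.39 and that of all tested miRNAs -0.17. With TMM all 7 were again called lower (21.2% of tested).

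A549 was also below MV3 for all 7 members (37.4% of tested called lower), from -2.21 for miR-17-5p (SE 0.51, limma, adjusted p 0.00728) to -1.43 for miR-19b-3p (SE 0.25, limma, adjusted p 0.00209) on the log2 scale. TMM reduced these differences and left 5 of 7 called (21.1% of tested). MiR-20a-5p then differed by -0.80 (adjusted p 0.233) and miR-17-3p by -1.20 (adjusted p 0.0728). Of the 313 miRNAs called on CPM, 109 were higher and 204 lower in A549, and of the 262 with TMM, 147 were higher and 115 lower.

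Between ES2 and MV3, none of the 7 members was called by limma (32.8% of tested were, either way), although 1 member had an unadjusted p below 0.05. Log2 differences ranged from 0.01 for miR-19a-3p (SE 0.37) to 0.79 for miR-20a-5p (SE 0.55). With TMM, miR-19b-3p (1.17, adjusted p 0.00504) and miR-92a-3p (0.89, adjusted p 0.007) were called higher in ES2 (12.8% of tested). edgeR called 2 members and DESeq2 4. The BE(2)C spread entered this comparison through the shared error term: when only NEXTflex libraries were fitted 4 members were called, and without either BE(2)C library 3 were. The calls on CPM were 49 higher and 130 lower in ES2 of 179, and with TMM 70 higher and 78 lower of 148.

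Between the Novogene lines, all 7 members were called higher in BE(2)C than in HepG2 on CPM (74.7% of tested), from 4.68 for miR-18a-5p (SE 0.42, limma, adjusted p 1.73e-05) to 2.46 for miR-20a-5p (SE 0.55, limma, adjusted p 0.00368) on the log2 scale. In every BE(2)C comparison, the limma SE and p-value pool the spread over all lines. The BE(2)C replicates alone differed by a log2 of 1.83 for miR-17-5p and 2.03 for miR-20a-5p. For these members the pooled SE understates the BE(2)C spread, and the p-values are too small. The median over all tested miRNAs, moreover, was 2.79. With TMM this median was 0.49 and 2 members were called higher (41.4% of tested): miR-18a-5p by 1.90 (adjusted p 0.00235) and miR-19b-3p by 0.77 (adjusted p 0.0138). MiR-17-5p then differed by 0.93 (adjusted p 0.111), and the differences of miR-20a-5p (-0.54, adjusted p 0.373) and miR-92a-3p (-0.41, adjusted p 0.0706) turned to the opposite sign. TMM also changed the calls over all miRNAs from 408 higher and 45 lower in BE(2)C to 226 higher and 125 lower.

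In the comparisons across preparations the calls differed between members. For BE(2)C against A549, and against MV3 below, the counts of members called on CPM were near the shares of all tested miRNAs. These counts therefore say little by themselves. Against A549, BE(2)C was called higher for 4 members (54.4% of tested), namely miR-17-5p by 3.45 on the log2 scale (SE 0.51, limma, adjusted p 0.000414), miR-17-3p by 2.43, miR-20a-5p by 2.27 and miR-19b-3p by 0.85, while miR-92a-3p differed by -0.07 (adjusted p 0.767). With TMM, 3 members were called higher (49.1% of tested), and miR-92a-3p was called lower by -0.60 (adjusted p 0.014), as were 26.9% of tested miRNAs. MiR-19a-3p changed sign from 0.38 to -0.14 without a call on either scale.

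Against ES2, BE(2)C was lower for miR-18a-5p, miR-19a-3p, miR-19b-3p and miR-92a-3p (26.4% of tested called lower, and 27.8% with TMM, which called the same 4 members). MiR-92a-3p differed by -2.13 on the log2 scale (SE 0.20, limma, adjusted p 2.61e-05). MiR-17-5p differed by 0.86 (SE 0.51, adjusted p 0.161) and miR-20a-5p by -0.12 (SE 0.55, adjusted p 0.861). Against MV3, 2 members were called lower in BE(2)C (32.4% of tested), miR-92a-3p by -1.72 (adjusted p 0.000104) and miR-19a-3p by -1.63 (adjusted p 0.00451). TMM called these same 2 lower (28.2% of tested) and miR-17-5p higher by 1.51 (adjusted p 0.0163), as were 46.5% of tested miRNAs. Without BE(2)C replicate 1 or without the PANC1 library, 4 members instead of 2 were called against MV3 on CPM.

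On CPM, HepG2 was called lower than ES2 for all 7 members (48.5% of tested) and lower than MV3 for all 7 (58.2%). Against A549 it was lower for 4 (55.7%): miR-18a-5p, miR-19a-3p, miR-19b-3p and miR-92a-3p. That count was near the share of all tested miRNAs and says little by itself. The largest difference was that of miR-18a-5p to ES2, -6.34 (SE 0.42, adjusted p 4.28e-06, limma), and it was still -3.76 with TMM (adjusted p 4.14e-05). With TMM, 5 members were lower than in ES2 (30.4% of tested) and 4 lower than in MV3 (34.1%), whereas miR-20a-5p was called higher than in MV3 by 1.49 (adjusted p 0.0294, with 29.7% of tested higher). Against A549, TMM called miR-17-5p (1.98, adjusted p 0.00491) and miR-20a-5p (2.29, adjusted p 0.00357) higher in HepG2 (31.1% of tested) and miR-18a-5p lower by -1.43 (adjusted p 0.00933, with 37.9% of tested lower). For miR-17-5p and miR-20a-5p the direction in HepG2 therefore depended on the scaling. Over all miRNAs, TMM moved the calls in HepG2 from 65 higher and 304 lower to 170 higher and 207 lower against A549, from 67 and 265 to 168 and 166 against ES2, and from 62 and 318 to 162 and 186 against MV3.

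**Figure D2:**
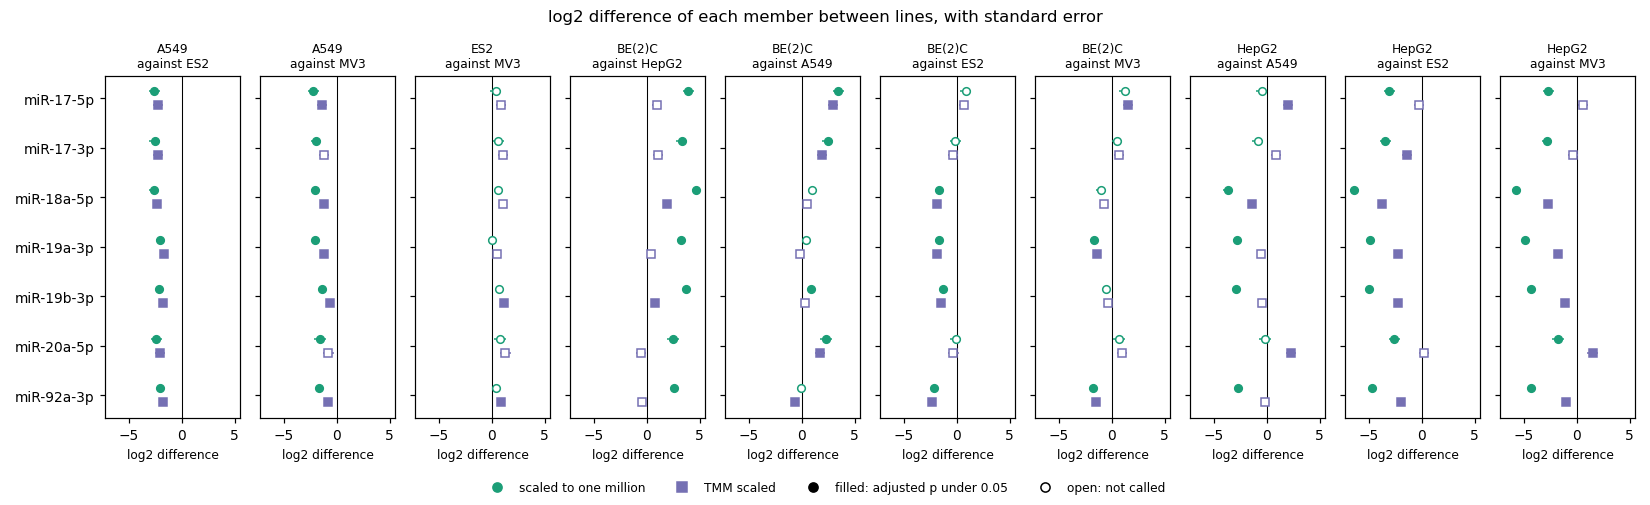
log2 difference (x axis, with standard error) of each member (y axis) in 10 comparisons of lines, for libraries scaled to 1000000 reads (circles) and by TMM (squares), filled where the adjusted p was below 0.05. The A549 panels are negative for all members on both scales, ES2 against MV3 is open for all members on CPM and filled for miR-19b-3p and miR-92a-3p with TMM, and the HepG2 panels shift to the right with TMM, past 0 for miR-20a-5p against all 3 lines.

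The BE(2)C replicates disagreed about the cluster. From replicate 1 to replicate 2, the CPM of miR-20a-5p differed by a factor of 4.10, of miR-17-5p by 3.55, of miR-18a-5p by 2.66, of miR-17-3p by 2.47, of miR-19a-3p by 2.14, of miR-92a-3p by 1.46 and of miR-19b-3p by 1.08. Members with nearly the same sequence, miR-19a-3p and miR-19b-3p, thus had different ratios (log2 differences of 1.08 and 0.11, with counting errors of 0.10 and 0.05). The arm miR-18a-3p was lower in replicate 2, with 157.6 CPM in replicate 1 and 90.7 in replicate 2, opposite to miR-18a-5p of the same hairpin.

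Over all members, 5 of 7 differed more than 2-fold between the BE(2)C replicates. Of these, miR-17-3p and miR-19a-3p had means of 21.9 and 70.3 CPM and lie outside the background set of 231 given next. Inside that set, miR-17-5p, miR-18a-5p and miR-20a-5p differed more than 2-fold, and miR-19b-3p and miR-92a-3p did not. Of 231 miRNAs with a mean of at least 100 CPM in BE(2)C, 59 (25.5%) differed more than 2-fold between the replicates, with a median log2 difference (replicate 2 minus replicate 1) of 0.41, whereas 0 or 1 did in each of the other 4 lines with replicates. Among these 231, the signed difference of miR-20a-5p stood at percentile 98.3, miR-17-5p at 96.5, miR-18a-5p at 90.0, miR-92a-3p at 55.8 and miR-19b-3p at 37.7, given as a description without a test. In those lines the 6 abundant members differed by a log2 of at most 0.65 (HepG2). Several markers of other tissues moved with the replicate. The liver markers miR-122-5p (823 and 5.96 CPM in replicates 1 and 2), miR-148a-3p (4230 and 1311) and miR-192-5p (1288 and 578) were higher in replicate 1, as was the red cell miR-451a (299 and 46.0), while miR-194-5p (160 and 258) was lower. The other blood markers, miR-142-3p, miR-223-3p and miR-150-5p, were below 2 CPM in both. Neural miR-9-5p (15875 and 17555 CPM) and miR-218-5p were similar, while the scarcer neural miR-124-3p was higher in replicate 2 (17.7 and 28.1 CPM). The part of these in the levels of the cluster was not tested.

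**Figure D3:**
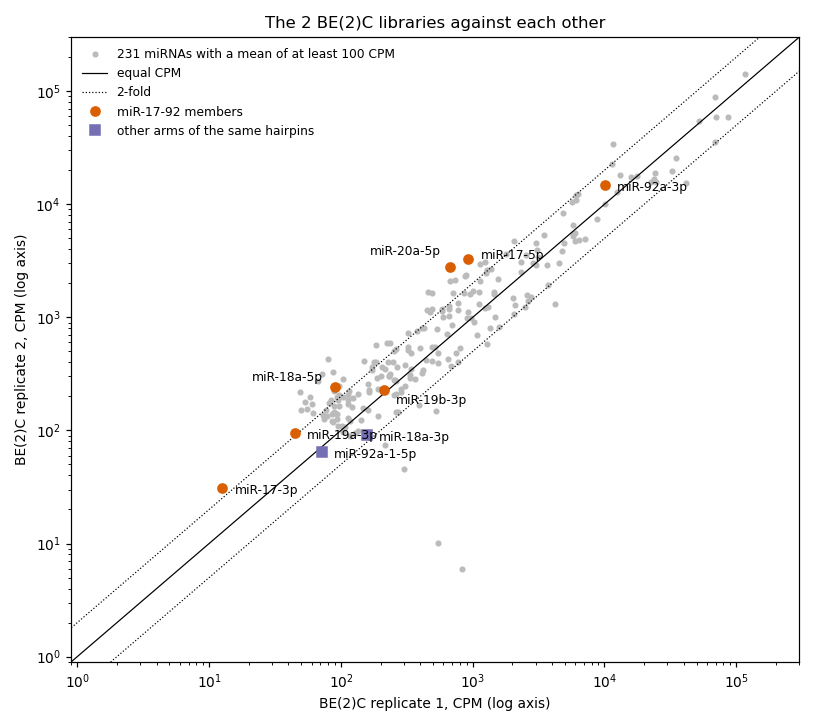
CPM of replicate 1 (x axis) and replicate 2 (y axis) of BE(2)C on log axes for 231 miRNAs with a mean of at least 100 CPM (grey), the 7 members (circles) and 2 other arms of their hairpins (squares), with lines for equal CPM and for a 2-fold difference. MiR-17-5p and miR-20a-5p lie above the 2-fold line, miR-19b-3p lies next to the line of equal CPM, and miR-18a-3p lies below it.

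Because a ratio between 2 members of a library is free of library scaling, each member was set against miR-17-5p. The printed ratios are of CPM, while the tests used log2 ratios after adding 1 CPM to both members. For scarce members the tested ratio therefore still depends on scaling. For miR-17-3p the tested ratio was highest in A549, whereas the printed ratio reached its highest value in ES2. For miR-92a-3p the ratio was 75.0 and 85.4 in A549, 51.9 and 58.5 in ES2, 54.8 and 53.7 in MV3 and 99.1 in PANC1, but 10.8 and 4.47 in BE(2)C and 18.6 and 16.9 in HepG2. All 7 NEXTflex libraries were above all 4 Novogene libraries. The ratio differed over the 6 lines (exact permutation test of the F statistic over all assignments of libraries to lines, which has no direction, p 0.000385, Benjamini-Hochberg adjusted over 6 ratios 0.00115).

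The same split by preparation was seen for 3 other members. MiR-18a-5p was at 0.400 to 0.498 of miR-17-5p in A549, ES2 and MV3 and at 0.127 in PANC1, but at 0.0974 and 0.0729 in BE(2)C and 0.0411 and 0.0428 in HepG2 (exact permutation, adjusted p 0.00115). MiR-19a-3p was at 0.160 to 0.365 in the NEXTflex libraries and at 0.0292 to 0.0608 in the Novogene libraries (exact permutation, adjusted p 0.00418). MiR-19b-3p was at 0.367 to 0.826 and 0.0694 to 0.228, and its adjusted p of 0.0345 (exact permutation) was above 0.05, and up to 0.0908, when any single library of A549, ES2, MV3 or HepG2 was left out. MiR-17-3p was at 0.0132 to 0.0268 in A549, ES2 and MV3, 0 in PANC1 and 0.00857 to 0.0136 in the Novogene libraries (exact permutation, adjusted p 0.00531, and 0.0584 without BE(2)C replicate 2).

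For miR-20a-5p the Novogene lines lay at opposite ends instead. Its ratio to miR-17-5p was 0.732 and 0.845 in BE(2)C, 2.17 and 2.21 in HepG2, and 1.12 to 2.00 in the NEXTflex libraries, with MV3 lowest at 1.20 and 1.12 (exact permutation, adjusted p 0.00327). BE(2)C was the only line in which miR-17-5p exceeded miR-20a-5p, and it did so in both replicates despite their 3.55-fold and 4.10-fold different levels. Over the 4 NEXTflex lines, none of the 6 ratios was called after adjustment (exact permutation, smallest possible p 0.00952). Unadjusted p-values there were 0.019 for miR-18a-5p and 0.0381 for miR-92a-3p.

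**Figure D4:**
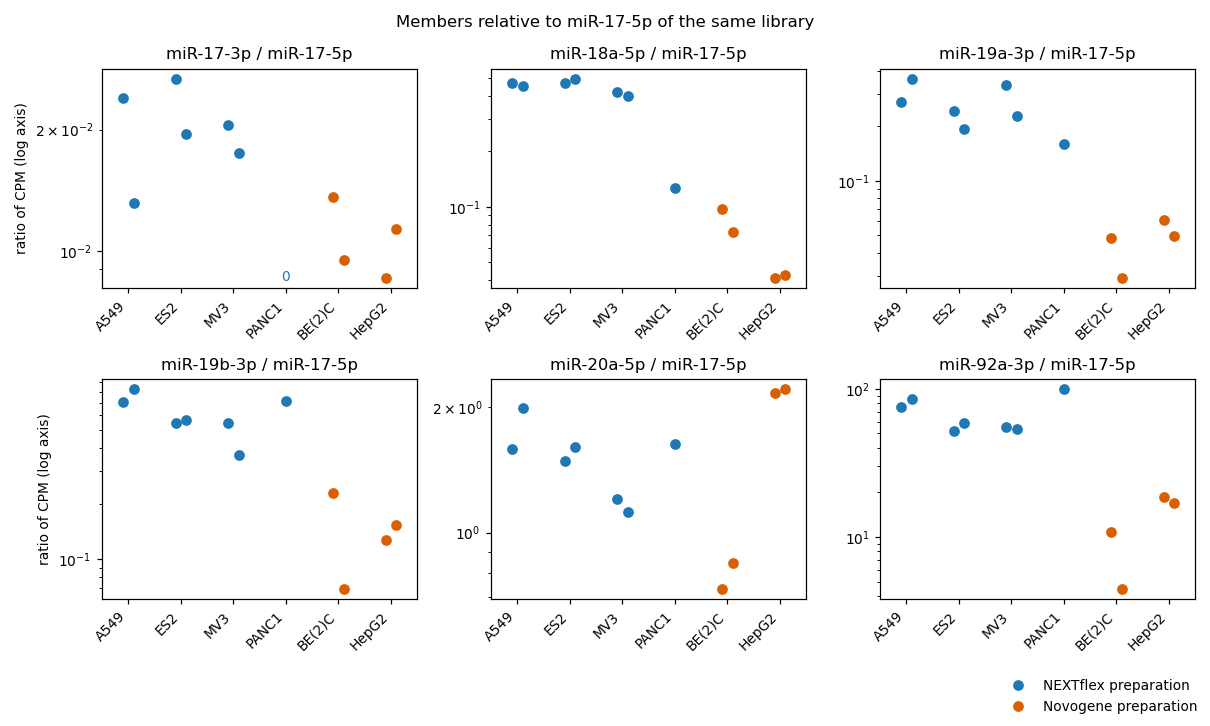
Ratio of the CPM of 6 members to that of miR-17-5p in the same library (y axis, log scale) by cell line (x axis), with points for libraries, colours for the preparation and a printed 0 where no read was found. For miR-92a-3p the NEXTflex points lie between 51.9 and 99.1 and the Novogene points between 4.47 and 18.6, while for miR-20a-5p HepG2 is highest and BE(2)C lowest.

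The hairpins also release their other arms, and for MIR18A the balance of the arms varied. The MIR17, MIR18A and MIR92A1 hairpins are shown with both annotated arms in capitals (RefSeq, GRCh38.p14, plus strand, chr13:91350605-91350688, chr13:91350751-91350821 and chr13:91351314-91351391), since both arms of MIR17 and MIR18A could be compared within a library and miR-92a-1-5p is the arm of MIR92A1 that has no copy on chromosome X. The balance of the MIR92A1 arms is not given, because reads of miR-92a-3p cannot be placed.

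MIR17: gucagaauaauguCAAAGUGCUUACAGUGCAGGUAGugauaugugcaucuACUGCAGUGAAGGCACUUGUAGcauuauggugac
MIR18A: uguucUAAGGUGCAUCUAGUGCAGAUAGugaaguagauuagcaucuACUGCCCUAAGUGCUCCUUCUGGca
MIR92A1: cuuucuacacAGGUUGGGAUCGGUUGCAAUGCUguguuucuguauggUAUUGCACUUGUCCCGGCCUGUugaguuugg

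Of the reads of both MIR18A arms, miR-18a-5p held 82.8% and 70.4% in A549, 85.4% and 86.3% in ES2, 74.1% and 71.6% in MV3, 57.9% in PANC1 (95% Wilson interval 53.2 to 62.4), and 68.6% and 67.3% in HepG2. In BE(2)C it held 36.4% in replicate 1 (34.2 to 38.6) and 72.6% in replicate 2 (70.6 to 74.4), so that replicate 1 was the single library with more of the 3p arm. Such intervals cover counting error only, since the reads are PCR products. For MIR17 the 5p arm held at least 97.4% of reads in every library, and for MIR20A at least 96.6%. MiR-92a-1-5p, the minor arm of MIR92A1 and free of the chromosome X copy, had 70.0 and 66.0 CPM in A549, 381 and 445 in ES2, 112 and 105.2 in MV3, 225 in PANC1, 71.4 and 64.1 in BE(2)C, and 4.71 and 4.53 in HepG2. On CPM it was highest in ES2 and lowest in HepG2, as was miR-92a-3p. Between these ends the arms differed: PANC1 lay above MV3 for miR-92a-1-5p and below it for miR-92a-3p. In ES2 against MV3 the log2 difference of miR-92a-1-5p was 1.92 (limma adjusted p 0.000183) and 2.39 with TMM. That of miR-92a-3p was 0.40, not called, and 0.89 with TMM. MiR-19a-5p, miR-19b-1-5p and miR-20a-3p were at 0 or up to 29.8 CPM.

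**Figure D5:**
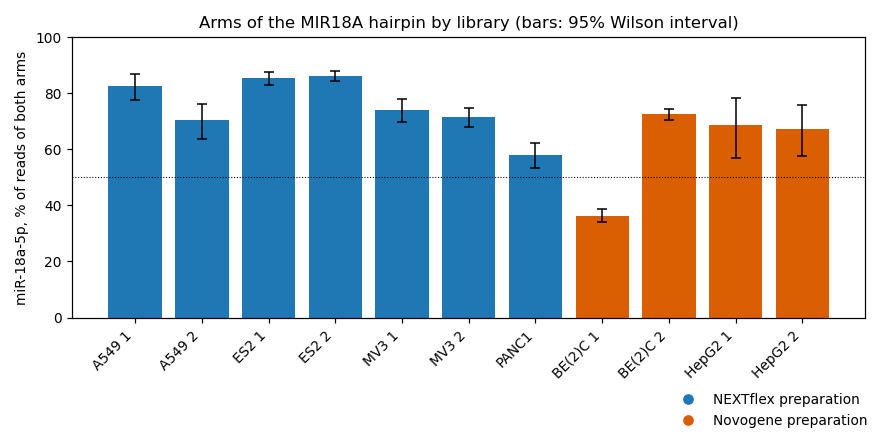
Share of miR-18a-5p in the reads of both arms of the MIR18A hairpin (y axis, percent) in each of 11 libraries (x axis), with 95% Wilson intervals as error bars and colours for the preparation. BE(2)C replicate 1 at 36.4% is the only bar below the dotted 50% line.

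Reads of miR-19b-3p and miR-92a-3p cannot be placed at a copy: the rows of the chromosome 13 copy held 44.2% to 52.7% and 50.3% to 52.2% of them, near an even split in every library. The arms that are unique to the chromosome X copies, miR-19b-2-5p and miR-92a-2-5p, had 0 reads in all 11 libraries. Among other products of the related MIR106A cluster on chromosome X, miR-106a-5p, which differs from miR-17-5p by C1A only, had 1.23 CPM in PANC1 up to 25.8 in BE(2)C replicate 2, and miR-17-5p exceeded it 25.3-fold to 168-fold. MiR-18b-5p and miR-20b-5p reached at most 4.74 and 8.56 CPM and miR-363-3p at most 11.7. How reads matching several of these near-identical miRNAs were assigned is not stated, so that the levels of such pairs are uncertain.

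The related MIR106B cluster on chromosome 7, which lies in an intron of the replication gene MCM7, was abundant. MiR-93-5p, with the seed of miR-17-5p, had its highest CPM in MV3 (5426 and 6510), but ES2 against MV3 was not called (log2 difference -0.46, limma adjusted p 0.29) and was 0.03 with TMM, and miR-106b-5p had 42.1 CPM (HepG2 replicate 1) to 552 CPM (BE(2)C replicate 2). MiR-25-3p, with the seed of miR-92a-3p, had its highest CPM in BE(2)C, at 10012 and 10014 in the replicates that differed for miR-17-5p and miR-20a-5p. Its log2 difference between BE(2)C and HepG2 was 2.84 on CPM and -0.17 with TMM. In BE(2)C replicate 1 its level was close to that of miR-92a-3p (10036 CPM), whereas in ES2 it had 2649 and 2589 CPM beside 52513 and 53543 of miR-92a-3p.

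The median profile of the 6 abundant members over the lines was compared with 531 other miRNAs. The measure was the root mean square (RMS) difference of centred log2(CPM + 1) line means. Other arms of the hairpins, arms of the chromosome X copies and the paralogs were left out of this ranking. The other arms had an RMS of 0.59 (miR-18a-3p) to 1.60 (miR-19b-1-5p), and the paralogs of 0.68 (miR-106b-5p) to 2.36 (miR-363-3p). Among the 531, the most alike were miR-3940-3p (RMS 0.39), miR-4521 (0.57), miR-671-5p (0.62), miR-320a (0.64) and miR-10b-3p (0.66), against a median of 2.06. Of the members themselves, miR-19a-3p (0.32) and miR-19b-3p (0.33) were nearest to this profile and miR-17-5p (0.89) and miR-17-3p (1.06) farthest. As the profile is the median of the 6 abundant members, their nearness to it is partly built in. MiR-17-3p had no part in that median. The comparison rests on 6 line means, which share library depth and preparation. Of the 5 most alike, miR-3940-3p and miR-10b-3p were near the floor in HepG2, with means of 0.166 and 0.125 CPM. Their HepG2 values on the log2(CPM + 1) scale are therefore set largely by the added 1 CPM. With TMM 4 of these 5 miRNAs were again the most alike, and over the 4 NEXTflex lines 0 of 5 were.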

How the data were processed

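Small RNA was sequenced in 11 libraries of 6 cell lines, grouped by the cell line label, with replicate numbers from the titles. The authors deposited a table per line with 2813 rows for 2588 mature miRNAs. The PANC1 values deposited were CPM. For the other 5 lines the authors deposited a scaled signal, CPM divided by a factor set within each table. The submitters' processing notes name cutadapt 1.14, Bowtie2 2.3.2, SAMtools 1.5, featureCounts 1.5.3, edgeR 3.30.3 and hg38. Counting of multi-mapping reads is not given in the sources used here.

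Every nonzero value (100%) was a whole multiple of 1 read within 0.01, so reads were recovered, rows of a name summed and each library rescaled to 1000000, since the planned test assumed CPM in all tables. Main tests used limma 3.58.1 (R 4.3.3) on log2(CPM + 1) with line as the only factor, all 11 libraries, a trended prior and Benjamini-Hochberg adjustment over all tested miRNAs (line mean of at least 10 CPM in any line, below 0.05). Fold changes on this scale understate low miRNAs. Ratios of members, as log2 after adding 1 CPM to both, were tested by exact permutation of the F statistic. edgeR 4.0.16 and DESeq2 1.42.0 ran on the recovered reads as alternatives. Fits and permutation code were tested on simulated data. The members and lists were chosen with earlier results of these data known. The text names the 7 members, the other arms of their hairpins, their paralogs and the 5 miRNAs most alike in RMS profile. The replicates of each line differed beyond sampling noise and were counted separately. Libraries held 1173902 to 12137452 reads, and intervals and floors cover counting error only. PANC1 had 1 library and entered no pairwise test.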

Additional observations from a re-analysis of the deposited data

How the results depend on the processing

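The count of members called stayed within 1.5 times its reported value in 247 of 274 refits. This count ignores direction and which members were called. In HepG2 against A549, 4 members were called lower in HepG2 on CPM, while TMM called 2 higher and 1 lower. Fewer of the 7 members were called in A549 against MV3 with edgeR (4) or DESeq2 (4). For ES2 against MV3 (0 called) TMM gave 2, quantile normalization 1, edgeR 2, DESeq2 4, a pseudocount of 5 gave 1, only same-preparation libraries 4 and only the 2 lines 5. For BE(2)C against HepG2 (7 called, all higher in BE(2)C) TMM gave 2, quantile normalization 2, edgeR 1 and DESeq2 2. Both calls with quantile normalization were lower in BE(2)C: miR-19a-3p (limma adjusted p 0.0166) and miR-92a-3p (limma adjusted p 0.000174). MiR-92a-3p was also called lower by DESeq2 (adjusted p 1.37e-07). For BE(2)C against MV3 (2 called) quantile normalization gave 4, deposited values 5, edgeR 4, DESeq2 4, a pseudocount of 5 gave 4 and a filter at 100 CPM 4. HepG2 against ES2 kept 4 of 7 with quantile normalization, edgeR and DESeq2, and against MV3 4 of 7 with quantile normalization. In BE(2)C against HepG2, log2 differences turned negative for miR-20a-5p with TMM (-0.54), quantile normalization (-1.04), edgeR (-0.48) and DESeq2 (-0.49), for miR-92a-3p (-0.41, -0.93, -0.63 and -0.57), and with quantile normalization for miR-17-3p (-0.89), miR-19a-3p (-0.98) and miR-19b-3p (-0.47). MiR-19a-3p in ES2 against MV3 ranged from -0.22 (without ES2 replicate 1) to 0.25 (without ES2 replicate 2) and was -0.20 without MV3 replicate 2. The difference of miR-19b-3p between the BE(2)C replicates was -0.048 with TMM and -0.066 on deposited values. With TMM the summed level was 12686 CPM in A549, 42931 in ES2, 23038 in MV3, 12043 in PANC1 and 12639 in HepG2. The cause of these shifts was not tested.

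With each library left out in turn, the members called were 7 over 6 lines, over the NEXTflex lines, in A549 against ES2, BE(2)C against HepG2 and HepG2 against ES2. They were 5 to 7 in A549 against MV3, 0 to 3 in ES2 against MV3, 3 to 6, 4 to 6 and 2 to 4 in BE(2)C against A549, ES2 and MV3, and 4 to 5 and 6 to 7 in HepG2 against A549 and MV3. A lone library left in a line is assumed to vary like the others. Adjusted p-values of the ratios over 6 lines were then 0.00974 to 0.0584 (miR-17-3p), 0.00254 to 0.00762 (miR-18a-5p), 0.00711 to 0.0295 (miR-19a-3p), 0.0054 to 0.0908 (miR-19b-3p), 0.00254 to 0.0165 (miR-20a-5p) and 0.00254 to 0.0295 (miR-92a-3p). Over the 4 NEXTflex lines they were 0.24 to 0.733, 0.0667 to 0.267, 0.244 to 0.489, 0.2 to 0.48, 0.133 to 0.333 and 0.0667 to 0.3 in the same order, where the test without PANC1 cannot give a p below 0.0667.

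Same-numbered replicates share only a number. Deviations from the line means correlated between -0.05 and 0.11 over 10 pairs of lines. With the replicate block, 7 members were called in A549 against ES2, 0 in ES2 against MV3 and 2 in BE(2)C against MV3, as without it. Depth limits precision most in the 6 libraries of A549, ES2 and MV3, where 3 reads are 1.12 to 2.56 CPM.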
